A study of Homo sapiens with 22 samples.

Results

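The interaction between 60 min of epidermal growth factor (EGF) and knockdown of the kinase MSK2 was measured in IMR90 cells, an established line of human fetal lung fibroblasts. It is a difference of differences on the log2 scale. The change from PBS to 60 min of EGF in cells with MSK2 siRNA (siMSK2) was taken, and the same change in cells with nontargeting control siRNA (NTC) was subtracted from it. A negative value says that the response to EGF, as a fold change, was smaller with MSK2 siRNA, and a positive value that it was larger. The rule named 14 of the 22 libraries of the series, in 4 groups: 4 of PBS-NTC, 3 of EGF60-NTC, 4 of PBS-siMSK2 and 3 of EGF60-siMSK2. All cells, controls included, had been given siRNA at 10 nM every 24 h over 72 h and starved of serum for 24 h. EGF was given at 750 pM, and the labels give the PBS cultures a time of 60 min as well. The knockdown rests on 1 siRNA reagent and 1 cell line, so other actions of that reagent cannot be told apart from loss of MSK2. Neither the labels nor the methods say that the libraries of a group came from separate cultures, so a P value measures no more than how far these libraries scatter, which may be technical.

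MSK2, encoded by RPS6KA4, is a nuclear serine/threonine kinase that is activated by the MAP kinases ERK and p38. With its close relative MSK1 it phosphorylates histone H3 and the transcription factor CREB at genes that growth factors switch on within minutes. These immediate-early genes encode transcription factors such as FOS and EGR2 and, a little later, proteins that shut the pathway off again, such as the phosphatase DUSP1. An interaction asks a narrower question than a comparison of cells with and without knockdown at 60 min. A gene that is already lower in starved cells with MSK2 siRNA and rises by the same fold with EGF has an interaction of 0.

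Depth, as the total of gene counts in a library, lay between 7893209 and 22244216 over the 14 libraries (median 14191926). All 12 fibroblast markers were over the filter on low counts, led by COL1A2. Of 8 epithelial markers 3 were over it, and of 5 leukocyte markers none was. The summed level of 5 endothelial markers, nearly all of it TEK, was 51.4 to 62.8 CPM (counts scaled to the same total for every library) in the 7 libraries with control siRNA and 16.1 to 27.4 in the 7 with MSK2 siRNA, with the defining markers PECAM1 and CDH5 below 1 CPM on average. The summed level of the 8 epithelial markers was 50.8 to 69.0 CPM over the 14 libraries. The highest of these markers was KRT18, at 41.6 CPM on average. PBS-NTC replicate 4 had the lowest depth and stood apart on principal components after the leading component, and its interferon-stimulated genes were high. Values that moved by over 1.5 times or changed sign when it was left out are given both ways for the gene lists and genes named below. The knockdown was checked on its target. RPS6KA4 stood at 21.7, 22.9, 25.3 and 11.1 CPM in the 4 PBS-NTC libraries and at 26.8, 18.2 and 19.1 CPM in EGF60-NTC. With MSK2 siRNA it stood at 3.77, 2.698, 1.74 and 1.78 CPM after PBS and at 2.15, 2.96 and 3.65 CPM after EGF. Every library with MSK2 siRNA was below every library with control siRNA. The interaction of RPS6KA4 itself was 0.19 (SE 0.37), with a wide 95% interval of −0.57 to 0.96, at the low counts that knockdown leaves, and 0.38 when PBS-NTC replicate 4 was left out.

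No gene passed the interaction test at an adjusted P under 0.05 in edgeR's quasi-likelihood test, out of 9770 genes tested (0%). At an unadjusted P under 0.05, 216 genes (2.21%) had an interaction, which is fewer than the share this limit lets through when nothing differs. That low share does not show that no gene differs, and the 30 min contrast of the same fit gave 661 genes. Of the 216 genes, 111 (1.14%) were lower and 105 (1.07%) higher. The median interaction over all genes was −0.0042, its median standard error was 0.16, and the median half-width of the 95% interval was 0.34 on the log2 scale. An interaction of more than 1 in size was found for 2 genes, ZNRF3 (−1.10) and MX1 (2.09, and 0.65 without PBS-NTC replicate 4). The smallest adjusted P was 0.0545, shared by DUSP1 and ITPRIP, both lower. Other tests put some of the leading genes past the threshold. DESeq2 called 3 genes, all lower (DUSP1, ITPRIP and ZNRF3), and limma-voom called DUSP1 and ITPRIP. With the replicate number as a block in edgeR, DUSP1 and ITPRIP were called lower, each at an adjusted P of 0.0309. Same-numbered libraries of PBS-NTC and PBS-siMSK2 deviated together, with correlations of 0.14 to 0.50 in all 4 pairs, but over the other pairs of the 4 groups 3 of 15 were over 0.1. Leaving out PBS-NTC replicate 1 in edgeR called ITPRIP alone, and leaving out PBS-NTC replicate 4 called DUSP1 alone.

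DUSP1 encodes a dual-specificity phosphatase that inactivates MAP kinases, and it is itself an immediate-early gene. In the PBS-NTC libraries it stood at 57.8, 58.9, 61.4 and 70.6 CPM, and in EGF60-NTC at 444, 419.5 and 440.5 CPM. With MSK2 siRNA it stood at 77.0, 61.7, 68.3 and 67.8 CPM after PBS and at 285, 308 and 327 CPM after EGF. The siRNAs overlapped in starved cells, and at 60 min every library with MSK2 siRNA was below every library with control siRNA. Relative to the PBS mean, the 3 control libraries rose by 2.75 to 2.83 on the log2 scale of CPM with 0.5 added, and the 3 with MSK2 siRNA by 2.05 to 2.25. The interaction was −0.66 (SE 0.12, 95% interval −0.90 to −0.41), so that 76.7% of the log2 response was kept. The rise in level itself was 373 CPM with control siRNA (SE 8.23) and 238 CPM with MSK2 siRNA (SE 12.6).

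ITPRIP encodes a protein that binds the inositol trisphosphate receptor, a calcium channel of the endoplasmic reticulum. It stood at 49.7, 40.6, 36.9 and 34.9 CPM in PBS-NTC and at 108, 119 and 113 CPM in EGF60-NTC. With MSK2 siRNA the values were 42.2, 41.2, 37.5 and 45.4 CPM after PBS and 74.7, 63.6 and 67.8 CPM after EGF. As for DUSP1, the siRNAs overlapped after PBS and separated at 60 min. The interaction was −0.75 (SE 0.14, 95% interval −1.04 to −0.47), and 48.9% of the log2 response was kept.

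ZNRF3, a ubiquitin ligase that removes Wnt receptors from the cell surface, had the lowest interaction of the 20 leading genes. It was expressed near the filter on low counts, at 8.92, 7.51, 8.02 and 5.28 CPM in PBS-NTC and 14.3, 13.1 and 11.5 CPM in EGF60-NTC. With MSK2 siRNA it stood at 8.35, 8.16, 8.12 and 8.43 CPM after PBS and at 7.79, 5.80 and 6.32 CPM after EGF. The response thus pointed upward in all 3 control libraries and downward in all 3 with MSK2 siRNA. The interaction was −1.10 (SE 0.23), and its adjusted P in edgeR was 0.216. The rise with control siRNA passed (log2 fold change 0.78, adjusted P = 0.0030 in edgeR), while the fall with MSK2 siRNA did not (−0.32, adjusted P = 0.65).

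**Figure D1:**
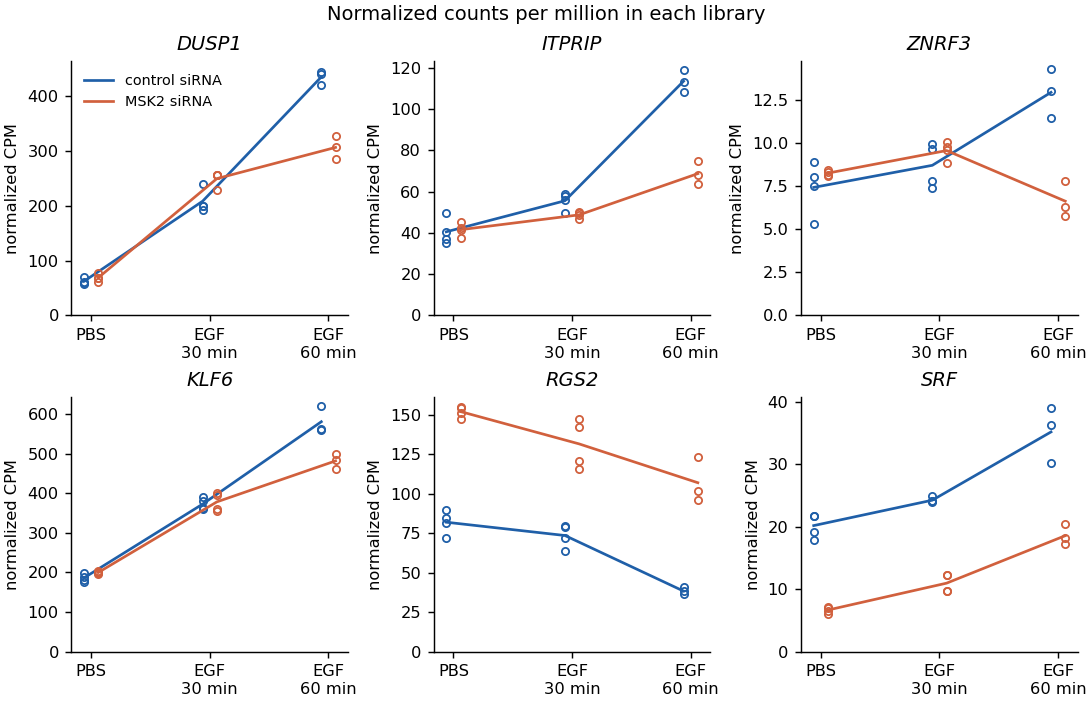
Normalized CPM (vertical axes, starting at 0) of 6 leading genes after PBS and after 30 and 60 min of EGF, with each circle 1 library and each line joining the group means of control siRNA (blue) or MSK2 siRNA (orange). DUSP1, ITPRIP, ZNRF3 and KLF6 overlap between siRNAs after PBS and separate at 60 min, whereas RGS2 and SRF already differ after PBS.

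In annotated position, the leading genes are spread over the genome. On GRCh38 (GENCODE v44), DUSP1 (ENSG00000120129) lies on chromosome 5 from 172768096 to 172771195 on the minus strand. ITPRIP (ENSG00000148841) lies on chromosome 10 from 104309698 to 104338465 on the minus strand, and ZNRF3 (ENSG00000183579) on chromosome 22 from 28883572 to 29057488 on the plus strand. RGS2 (ENSG00000116741) lies on chromosome 1 from 192809039 to 192812275 and SRF (ENSG00000112658) on chromosome 6 from 43171269 to 43181506, both on the plus strand. ITPRIP and ZNRF3 overlap the antisense genes ITPRIP-AS1 and ZNRF3-AS1. The library kit does not mark the strand, so their reads cannot be told apart where they overlap.

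The promoters of the 2 leading genes in each direction are shown because CREB, a substrate of MSK2, binds the cyclic AMP response element (CRE) and SRF binds the CArG box. The sequences are from RefSeq on GRCh38.p14, from 250 bases before to 50 bases after the annotated start. They cover chr5:172771146-172771445 (minus strand) for DUSP1, chr10:104338416-104338715 (minus strand) for ITPRIP, chr1:192808789-192809088 (plus strand) for RGS2 and chr6:43171019-43171318 (plus strand) for SRF. Capitals mark, on either strand, the CRE TGACGTCA, its shorter form TGACG (which the CRE contains), the AP-1 site TGANTCA and the CArG box.
DUSP1: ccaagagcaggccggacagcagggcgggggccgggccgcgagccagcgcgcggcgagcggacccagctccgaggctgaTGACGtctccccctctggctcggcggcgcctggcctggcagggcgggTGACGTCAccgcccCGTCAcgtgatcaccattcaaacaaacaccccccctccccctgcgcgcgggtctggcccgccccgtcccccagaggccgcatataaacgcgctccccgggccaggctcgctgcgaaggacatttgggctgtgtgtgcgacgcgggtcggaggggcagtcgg
ITPRIP: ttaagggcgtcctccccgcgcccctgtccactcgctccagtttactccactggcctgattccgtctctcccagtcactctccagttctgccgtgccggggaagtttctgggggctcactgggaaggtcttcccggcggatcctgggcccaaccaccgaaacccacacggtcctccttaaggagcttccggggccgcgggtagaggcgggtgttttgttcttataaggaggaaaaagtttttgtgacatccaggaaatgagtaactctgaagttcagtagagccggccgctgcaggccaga
RGS2: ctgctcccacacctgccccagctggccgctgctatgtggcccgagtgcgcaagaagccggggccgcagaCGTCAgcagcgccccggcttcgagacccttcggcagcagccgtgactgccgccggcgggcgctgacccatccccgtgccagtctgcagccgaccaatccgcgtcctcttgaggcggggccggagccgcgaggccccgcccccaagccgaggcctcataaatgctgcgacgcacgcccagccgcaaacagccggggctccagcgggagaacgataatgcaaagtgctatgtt
SRF: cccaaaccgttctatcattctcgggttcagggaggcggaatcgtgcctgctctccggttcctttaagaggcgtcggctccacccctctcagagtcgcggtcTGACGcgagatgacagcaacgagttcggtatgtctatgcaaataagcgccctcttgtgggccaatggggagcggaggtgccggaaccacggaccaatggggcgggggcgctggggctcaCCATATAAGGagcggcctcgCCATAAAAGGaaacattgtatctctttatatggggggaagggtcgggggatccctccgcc
The DUSP1 window holds 1 full CRE, which begins 125 bases before the start, and 4 short forms, some of them within the CRE. The ITPRIP window holds none of the 4 motifs. RGS2 and SRF each hold 1 short form, and SRF holds 2 CArG boxes, which begin 30 and 10 bases before the start. Of the 20 leading genes, 17 had a promoter entry. A full CRE was found in 3 of them (DUSP1, CDC42 and YTHDC2), a short form in 9, an AP-1 site in 1 (F3) and a CArG box in 1 (SRF). Among the promoters of 7996 tested genes these shares were 3.64%, 35.8%, 4.30% and 1.15%, and among all 27305 promoters 1.98%, 25.01%, 7.76% and 1.285%. A match describes the letters of the window and does not show that a factor was bound there.

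Of the remaining genes with the lowest P among negative interactions, KLF6, KLF2 and PRDM1 encode zinc finger transcription factors. KLF6 stood at 180, 189, 177 and 199 CPM in PBS-NTC, 562, 560.4 and 621 CPM in EGF60-NTC, 201, 204, 199.7 and 195 CPM in PBS-siMSK2 and 461, 499.9 and 485 CPM in EGF60-siMSK2. Its interaction was −0.37 (SE 0.09). PRDM1, a repressor of transcription, rose to 39.8, 32.1 and 40.6 CPM in the EGF60-NTC libraries and to 21.1, 24.9 and 18.2 CPM in EGF60-siMSK2, from 12.4 to 16.8 and 13.2 to 13.6 CPM after PBS. Its interaction was −0.69 (SE 0.19). KLF2 differed from these in that the difference lay after PBS. It stood at 8.04, 6.55, 8.95 and 6.06 CPM in PBS-NTC and at 16.1, 12.9, 12.9 and 7.90 CPM in PBS-siMSK2. At 60 min it stood at 70.6, 75.4 and 62.7 CPM with control siRNA and at 66.6, 66.8 and 63.1 CPM with MSK2 siRNA, where the libraries overlapped. Its interaction of −0.82 (SE 0.22) thus stood beside a higher level before EGF (log2 difference 0.73, adjusted P = 0.0010 in edgeR) and a difference of −0.09 at 60 min. TENT5A, of a family of poly(A) polymerases, and TIMP3, an inhibitor of metalloproteinases, were of the same kind, with interactions of −0.42 and −0.28 and differences after PBS of 0.58 and 0.19. The lower limit of the EGF60-NTC responses was above the upper limit of the EGF60-siMSK2 responses for all 10 leading lower genes, ZNF764 and AP3M2 included. AP3M2 fell with EGF in the cells with MSK2 siRNA (−0.43, adjusted P = 0.0047 in edgeR), and its change with control siRNA was −0.01. Over all genes tested this held for 7.43%, and since the 10 were chosen by P in this contrast, nothing is read from their count.

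Among positive interactions, RGS2 and SRF had the lowest P. RGS2, which switches off G protein signaling, fell with EGF under both siRNAs. It stood at 72.1, 81.3, 90.0 and 84.7 CPM in PBS-NTC and at 36.2, 40.7 and 38.1 CPM in EGF60-NTC. With MSK2 siRNA it stood at 152, 155, 154 and 147 CPM after PBS and at 96.0, 123 and 102 CPM after EGF. All libraries with MSK2 siRNA were above all with control siRNA at both times. The interaction was 0.59 (SE 0.14, adjusted P = 0.784 in edgeR), while the fall in level was 43.7 CPM with control siRNA and 45.1 CPM with MSK2 siRNA, so the log2 and linear scales gave different pictures.

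SRF, serum response factor, is the transcription factor that carries growth factor and actin signals to the immediate-early and cytoskeletal genes. It stood at 21.7, 21.7, 19.2 and 17.9 CPM in PBS-NTC, 39.1, 36.2 and 30.2 CPM in EGF60-NTC, 7.11, 6.53, 6.96 and 5.97 CPM in PBS-siMSK2 and 20.4, 17.1 and 18.1 CPM in EGF60-siMSK2. The libraries with MSK2 siRNA were lower at both times, and after EGF they had reached about the level of starved cells with control siRNA. The log2 response was 0.79 with control siRNA and 1.48 with MSK2 siRNA, an interaction of 0.69 (SE 0.18). In level the rise was 15.0 CPM (SE 2.78) and 11.9 CPM (SE 0.98).

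F3, tissue factor, the membrane protein that starts blood coagulation, showed the same relation at a higher level. It stood at 451 to 519.6 CPM in PBS-NTC and 1041 to 1095 CPM in EGF60-NTC, and at 119 to 137 and 322 to 348 CPM with MSK2 siRNA. The interaction was 0.29 (SE 0.09), whereas the rise was 581 CPM with control siRNA and 213 CPM with MSK2 siRNA. CDC42, a small GTPase of the actin cytoskeleton, had log2 differences between siRNAs of −1.68 after PBS and −1.25 at 60 min, and did not pass the test for EGF with either siRNA. NFIL3, a repressor of transcription, CEP112, a centrosomal protein, PLGRKT, a plasminogen receptor, YTHDC2, an RNA helicase, GMDS, an enzyme of fucose synthesis, and SLC43A3, a transporter, had interactions of 0.48 to 0.80. These 6 also did not pass the test for EGF with either siRNA. NFIL3 in PBS-NTC replicate 4 (87.4 CPM) and PLGRKT in PBS-NTC replicate 3 (12.8 CPM) lay apart from the other libraries of that group (60.2 to 64.5 and 17.8 to 18.2 CPM).

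**Figure D2:**
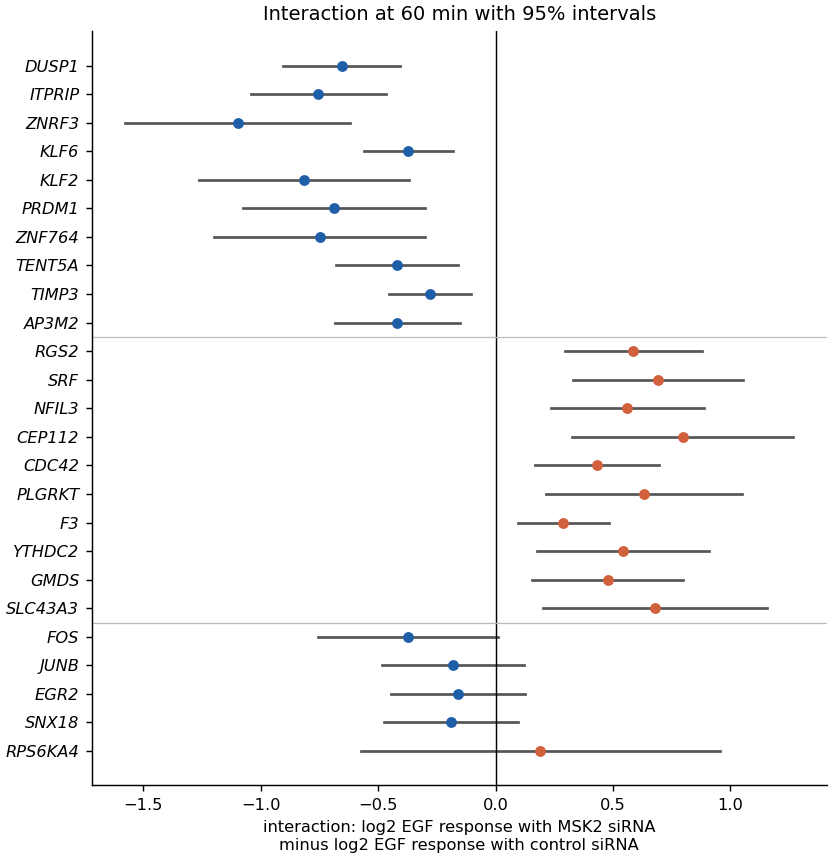
Interaction at 60 min (horizontal axis, log2 difference of EGF responses) of the 10 genes with the lowest P in each direction, of 4 genes named in the study's text and of RPS6KA4, with 95% intervals as bars. Intervals of the 20 leading genes exclude 0 because they were chosen by P, and all 5 other intervals include 0.

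FOS, JUNB, EGR2 and SNX18, which the study names, did not pass and had negative values. FOS, a subunit of AP-1, stood at 10.2 to 13.4 CPM in PBS-NTC and 68.0 to 74.7 CPM in EGF60-NTC, and at 6.88 to 11.4 and 39.2 to 56.0 CPM with MSK2 siRNA. Its interaction was −0.37 (SE 0.19, 95% interval −0.76 to 0.01). JUNB, another AP-1 subunit, had an interaction of −0.18 (SE 0.15) and EGR2, a zinc finger factor, one of −0.16 (SE 0.14). JUNB was already lower after PBS with MSK2 siRNA (39.97 to 51.5 against 53.5 to 79.0 CPM), and its rise in level was 168 against 288 CPM. SNX18, a sorting nexin of membrane traffic, had an interaction of −0.19 (SE 0.14), with differences between siRNAs of −0.43 after PBS and −0.61 at 60 min. The intervals of these 4 genes reached from −0.76 to 0.13, and each included 0.

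To look at EGF-responsive genes as a whole, genes were chosen by the mean of the responses with both siRNAs. That choice does not use the interaction contrast. Both siRNAs had the same numbers of libraries, so the mean and the difference of the responses are uncorrelated, but only up to unequal depth and spread. By this measure 407 genes rose (4.17%) and 50 fell (0.512%). The median response of the 407 was 0.46 with control siRNA and 0.44 with MSK2 siRNA. Their median interaction was −0.025, and 228 of them (56.0%) were below 0, beside 51.4% of all genes tested. At an unadjusted P under 0.05, 19 were lower and 10 higher, beside 1.14% and 1.07% of all genes tested. The responses of the 3 libraries per siRNA did not overlap and were lower with MSK2 siRNA for 64 of the 407 (15.7%), beside 7.43% of all genes, and higher for 36 (8.85%), beside 6.96%. Among the 50 genes with the largest mean rises, 32 had a negative interaction, with a median of −0.096 and median responses of 1.97 and 1.87. Of the 50 genes that fell, 18 had a negative interaction. Across genes, which are not independent replicates, the responses with the 2 siRNAs had a Pearson correlation of 0.95 over the 407 and of 0.75 over all genes, with no library in common.

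Counted as calls, 244 genes rose with control siRNA (2.5%) and 206 with MSK2 siRNA (2.11%). The 171 genes that rose with both were 70.1% of the former and 83.0% of the latter. A gene called with 1 siRNA and not with the other is not thereby shown to differ, and none of these differences passed the interaction test.

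The scale of the measurement mattered for genes that were already lower before EGF. In CPM, 253 of the 407 genes (62.2%) rose by less with MSK2 siRNA, beside 52.4% of all genes tested, and 44 of the 50 largest risers did so. For 23 of the 407 the rise in CPM was larger with MSK2 siRNA while the log2 response was smaller. For 48 of the 407 the rise in CPM was smaller while the log2 response was larger. Of these 48, 37 were lower after PBS with MSK2 siRNA at an adjusted P under 0.05 in edgeR. CCN1, a secreted matricellular protein, is an example. It stood at 512 to 712 CPM in PBS-NTC, 1720 to 1732 CPM in EGF60-NTC, 266 to 302 CPM in PBS-siMSK2 and 912 to 996 CPM in EGF60-siMSK2. Its rise was 1136 CPM with control siRNA and 681 CPM with MSK2 siRNA, and its interaction was 0.21 (SE 0.11). MYC, a transcription factor of growth, rose by 58.9 and 39.9 CPM, with an interaction of 0.32 (SE 0.15). Leaving out PBS-NTC replicate 4 lowered these interactions to 0.11 for CCN1 and 0.21 for MYC.

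Of the 407 genes, 101 were called lower after PBS with MSK2 siRNA (12.6% of all genes tested), 46 were called higher (12.2%) and 260 were not called. The median responses were 0.46 with control siRNA and 0.53 with MSK2 siRNA for the 101, 0.46 and 0.43 for the 260, and 0.44 and 0.34 for the 46. The difference after PBS and the interaction share the 8 PBS libraries with opposite signs, so part of this order follows from the choice of genes.

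**Figure D3:**
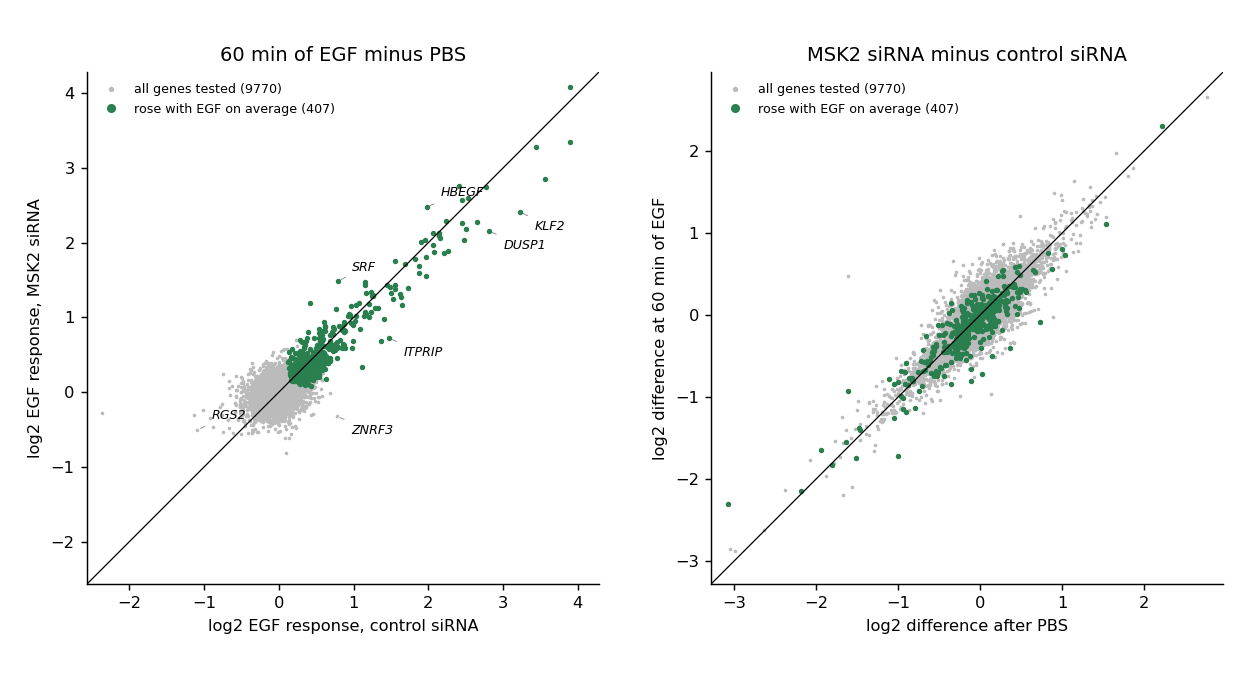
Left, log2 EGF response at 60 min with control siRNA (horizontal) against MSK2 siRNA (vertical). Right, log2 difference of MSK2 siRNA minus control siRNA after PBS (horizontal) against 60 min of EGF (vertical). Each point is 1 gene, grey for the 9770 tested and green for the 407 that rose with EGF on average, and the line marks equal values, from which the vertical distance of a point is its interaction. The green points lie along the line on the left (correlation 0.95).

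Differences between the siRNAs were wide before EGF and largely held after it. With MSK2 siRNA, 1234 genes were lower after PBS (12.6%) and 1192 higher (12.2%). At 60 min 982 were lower (10.1%) and 915 higher (9.37%). In all, 1529 genes were called at both times, all of them in the same direction, which is 63.0% of the 2426 called after PBS and 80.6% of the 1897 called at 60 min. These comparisons share no library, and over all genes the differences had a Pearson correlation of 0.87. A further 368 genes were called at 60 min and not after PBS. Of these, 54 had an interaction at an unadjusted P under 0.05, beside 2.21% of all genes tested. The interaction is the difference at 60 min minus that after PBS. This choice of genes therefore favors interactions by itself, and nothing is read from the count. Of the 407 genes that rose with EGF, 77 were lower and 22 were higher at both times, beside 8.44% and 7.21% of all genes tested.

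Among 28 tested immediate-early transcription factors of 32 listed, 25 rose with control siRNA (2.5% of all genes tested) and 26 with MSK2 siRNA (2.11%). The interactions of this group went both ways, with 11 below 0 and a median of 0.065 (0.036 without PBS-NTC replicate 4). At an unadjusted P under 0.05, 3 were lower (1.14% of all genes) and 4 higher (1.07%). These shares of all genes stand beside each such count in the lists that follow. The 3 lower were KLF6, KLF2 and NR4A2. The 4 higher were SRF, NFIL3, MYC and ATF3, a stress-induced partner of AP-1 (0.34, named after its value was seen). NR4A2, an orphan nuclear receptor, was higher with MSK2 siRNA already before EGF. It stood at 7.46 to 10.5 CPM in PBS-NTC and 21.9 to 27.8 CPM in EGF60-NTC, and at 25.3 to 27.9 and 47.4 to 58.1 CPM with MSK2 siRNA. Its interaction was −0.43 (SE 0.19), while its rise in level was 25.4 CPM with MSK2 siRNA and 15.2 CPM with control siRNA. Of 19 tested CREB and CRTC factors and target genes, 8 were below 0, 2 were lower at an unadjusted P under 0.05 (DUSP1 and NR4A2) and none higher, with a median of 0.041 (0.12 without PBS-NTC replicate 4). CREB5, a member of the CREB family, had an interaction of 0.27 (SE 0.16).

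The list of feedback inhibitors of growth factor signaling, with 31 genes tested, held 4 lower and 2 higher genes at an unadjusted P under 0.05. These counts stand beside 1.14% and 1.07% of all genes tested. Of the 31 genes, 18 were below 0, and the median was −0.044 (−0.0020 without PBS-NTC replicate 4). The 4 lower were DUSP1, SOCS3, ZFP36 and DUSP2, and the 2 higher were RGS2 and DUSP4, a further MAP kinase phosphatase (0.48, named after its value was seen). SOCS3, which blocks cytokine receptor signaling, stood at 27.5 to 45.6 CPM in PBS-NTC, 109 to 124 CPM in EGF60-NTC, 26.3 to 34.6 CPM in PBS-siMSK2 and 63.0 to 68.2 CPM in EGF60-siMSK2. Its interaction was −0.48 (SE 0.16). ZFP36, which speeds the decay of short-lived mRNAs, went from 30.1 to 43.6 CPM up to 162 to 194 CPM with control siRNA and from 31.2 to 37.95 CPM up to 110 to 140 CPM with MSK2 siRNA, with an interaction of −0.38 (SE 0.14). DUSP2, another MAP kinase phosphatase, had an interaction of −0.71 (SE 0.29) at 1.23 to 2.89 CPM in PBS-siMSK2. The kinases and adaptors from the EGF receptor to MSK gave no low unadjusted P (27 tested, 18 below 0, median −0.048), RPS6KA3, the kinase RSK2, having −0.23 (SE 0.15). Without PBS-NTC replicate 4 the median of that list was 0.010 and 12 were below 0.

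Secreted factors responded alike in median (26 tested of 36, responses 0.40 and 0.43, interaction −0.018, no low unadjusted P). Of the 26, 17 were lower after PBS with MSK2 siRNA (12.6% of all genes tested) and 6 were higher (12.2%), with a median of −0.45. At 60 min 15 were lower (10.1%) and 5 higher (9.37%). HBEGF, a ligand of the EGF receptor, rose from 5.50 to 6.55 CPM up to 21.3 to 24.9 CPM with control siRNA, and from 3.98 to 5.37 CPM up to 24.9 to 28.7 CPM with MSK2 siRNA. Its interaction was 0.50 (SE 0.25, 95% interval −0.02 to 1.02). TGFB3, a cytokine of the TGF-beta family, had 0.47 (SE 0.24) and CCL2, a chemokine, 0.26 (SE 0.17). Of 20 prostaglandin, coagulation and protease genes, TIMP3 was lower and F3 higher at an unadjusted P under 0.05 (median −0.040, 14 below 0, and median −0.023 without PBS-NTC replicate 4).

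Several further lists with many genes lower with MSK2 siRNA also had median interactions near 0. Of 23 tested genes of cholesterol synthesis and uptake, 19 were lower after PBS (12.6% of all genes tested) and 18 at 60 min (10.1%), with medians of −0.91 and −0.85. Their median interaction was −0.026, with 13 below 0. Of 30 actin cytoskeleton genes regulated by SRF, 18 were lower after PBS and 17 at 60 min, beside the same shares of all genes. Their median interaction was −0.012, none was lower and 2 were higher at an unadjusted P under 0.05, namely SRF itself and MRTFB, a coactivator of SRF (0.57, SE 0.23). TAGLN, an actin-binding protein of contractile cells, had −0.22 (SE 0.12). Targets of YAP and TEAD (21 tested, 11 lower after PBS, median interaction 0.0079) gave 1 gene higher at an unadjusted P under 0.05, which was F3. NUAK2, a kinase on that list, had −0.28 (SE 0.17). Targets of NF-kB (21 tested, 8 lower after PBS) had a median of −0.037 and no low unadjusted P. NFKBIZ and NFKBIA, regulators of NF-kB, had −0.30 (SE 0.17) and −0.25 (SE 0.14). When PBS-NTC replicate 4 was left out, the medians were −0.014 for the cholesterol genes, 0.0014 for the actin genes, −0.00021 for the targets of YAP and TEAD and −0.0087 for those of NF-kB. The 11 of 21 targets of YAP and TEAD and 8 of 21 of NF-kB that were lower after PBS stand beside 12.6% of all genes.

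Targets of p53 were higher with MSK2 siRNA after PBS in 15 of 28 genes (12.2% of all genes tested) and in 12 at 60 min (9.37%), with a median interaction of −0.069. TP53INP1, a p53-induced protein of cell death, was the 1 gene with a low unadjusted P (−0.22, SE 0.11), while CDKN1A, which encodes p21, an inhibitor of the cell cycle, had −0.15 (SE 0.10). The unfolded protein and integrated stress responses (25 tested, median −0.023), genes of S phase and mitosis (16 tested of 28, median −0.036), genes of H3K9 methylation and the nuclear lamina (25 tested, median 0.0042) and transcripts of the mitochondrial genome (15, median −0.032) gave no low unadjusted P. Within them DDIT3 and CHAC1, genes of the stress response, had 0.31 (SE 0.16) and −0.23 (SE 0.20). TYMS, which makes thymidylate, had 0.43 (SE 0.23), and MT-ND3, a subunit of respiratory complex I, 0.43 (SE 0.24). Of the 25 genes of the stress responses, 12 were lower after PBS with MSK2 siRNA (12.6% of all genes tested) and 2 were higher (12.2%). Of 29 genes of fibroblast identity and matrix, TIMP3 was lower and none was higher (median −0.015). Without PBS-NTC replicate 4, the medians of the matrix and mitochondrial lists turned to 0.044 and 0.10, and that of the H3K9 methylation and lamina list rose to 0.031.

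Interferon-stimulated genes were the 1 list whose members all lay on 1 side. Of 16 tested genes of 30 listed, 0 were below 0, the median interaction was 0.40, and 2 were higher at an unadjusted P under 0.05 (MX1 and IFIT3). These values rest on PBS-NTC replicate 4. MX1, an antiviral GTPase, stood at 7.74, 4.08, 3.82 and 45.7 CPM in the 4 PBS-NTC libraries, and at 1.66 to 4.08 CPM in EGF60-NTC. With MSK2 siRNA it stood at 2.82 to 6.17 and 2.46 to 5.50 CPM. IFIT1, another antiviral gene, stood at 33.4, 24.7, 27.2 and 120 CPM in PBS-NTC, at 22.01 to 26.6 CPM in EGF60-NTC and at 30.1 to 43.9 CPM in the 7 libraries with MSK2 siRNA. Without PBS-NTC replicate 4 the median of the list was 0.072 and 5 of 16 genes were below 0. With replicates 1 to 3 of every group it was 0.11, and 4 were below 0.

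**Figure D4:**
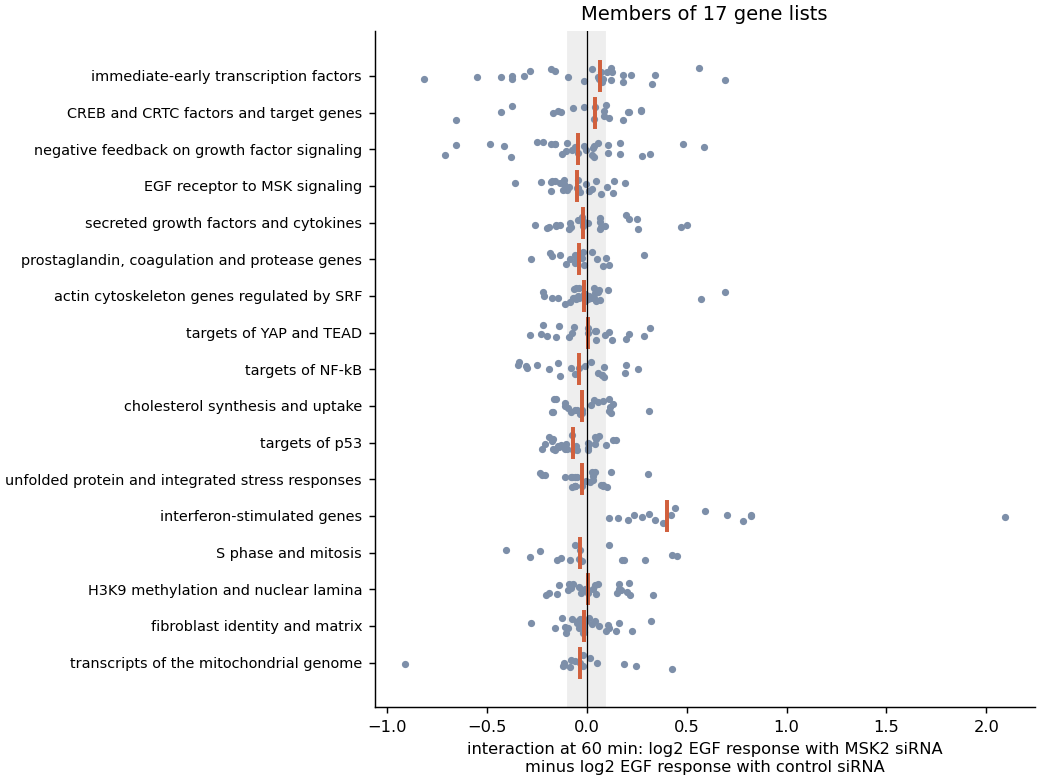
Interaction at 60 min (horizontal axis, log2 difference of EGF responses) of every tested member of 17 gene lists, with each point 1 gene, the orange bar the list median and the grey band the interquartile range of all genes tested. Medians of 16 lists lie between −0.069 and 0.065, and that of the interferon-stimulated genes is 0.40 with PBS-NTC replicate 4 and 0.072 without it.

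The study termed 59 of its EGF-induced genes MSK2 dependent, from PBS-NTC, EGF60-NTC and EGF60-siMSK2 libraries that are also used here. Their values are therefore a description, and their direction at 60 min was fixed by that choice. All 59 were lower at 60 min with MSK2 siRNA, with a median of −0.64. The PBS-siMSK2 libraries were not used in that choice, and compared with PBS-NTC 44 of the 59 were already called lower there (12.6% of all genes), with a median of −0.52. The median response was 0.53 with control siRNA and 0.39 with MSK2 siRNA. The median interaction was −0.15, with 44 below 0 and 0 past the adjusted threshold. At an unadjusted P under 0.05, 5 were lower and 3 higher, beside 1.14% and 1.07% of all genes tested. Among the lowest were ZNRF3, DUSP2, PRDM1, HS3ST3B1, an enzyme of heparan sulfate synthesis (−0.38, SE 0.17), and CD274, the immune checkpoint ligand PD-L1 (−0.34, SE 0.34). CD274 stood at 3.36 to 4.25 CPM in PBS-NTC, 13.6 to 21.7 CPM in EGF60-NTC, 1.63 to 2.89 CPM in PBS-siMSK2 and 7.16 to 9.06 CPM in EGF60-siMSK2, so it was lower with MSK2 siRNA both before and after EGF. Among the highest were SRF, MYC, F3 and CCN1. The other 228 EGF-induced genes of the study had a median interaction of −0.081 and a median difference after PBS of 0.016. Of these, 164 (71.9%) were below 0, beside 51.4% of all genes tested. At an unadjusted P under 0.05, 21 of them were lower and 4 higher, beside the same 1.14% and 1.07% of all genes. Both lists were chosen for a rise from PBS-NTC to EGF60-NTC. That response enters the interaction with a minus sign, so the choice itself moves their interactions below 0. The 59 were also chosen for a lower level in EGF60-siMSK2 than in EGF60-NTC, which moves their interactions further below 0. The 228 were the genes that remained, so nothing is read from the difference between the lists.

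At 30 min of EGF, the same contrast called no gene either (0%), with 661 genes at an unadjusted P under 0.05. Without PBS-NTC replicate 4, 18 genes were called. The interactions at 30 and 60 min share the PBS libraries, and their values are given side by side. DUSP1 had 0.11 (SE 0.11) at 30 min and −0.66 at 60 min. FOS had 0.39 (SE 0.17) and −0.37, SOCS3 0.16 (SE 0.15) and −0.48, EGR2 0.22 (SE 0.13) and −0.16, and ZNRF3 0.0048 (SE 0.22) and −1.10. KLF2 and PRDM1 were negative at both times (−0.40 and −0.38 at 30 min), and SRF was positive at both (0.47 at 30 min).

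A contrast that uses no PBS library compared the change from 30 to 60 min of EGF between the siRNAs. It was added after the data had been seen. It shares the EGF60 libraries, with the same signs, with the interaction at 60 min. Genes named for a low P in that interaction therefore lean the same way here by choice, and their values are no separate support. DUSP1 went from 200, 193, 200.4 and 240.2 CPM at 30 min to 444, 419.5 and 440.5 CPM at 60 min with control siRNA. With MSK2 siRNA it went from 229, 256, 256 and 257 CPM to 285, 308 and 327 CPM. The 30 min libraries overlapped between siRNAs, and at 60 min all 3 with control siRNA were above all 3 with MSK2 siRNA. The difference was −0.77 (SE 0.12, adjusted P = 0.00621 in edgeR), and DUSP1 was the 1 gene called lower (0.0102%), with no gene called higher (0%). At an unadjusted P under 0.05, 460 genes were lower and 601 higher. Leaving out EGF60-siMSK2 replicate 1 ended the call, at an adjusted P of 0.0503 in edgeR. FOS, SOCS3, RGS2 and ZNRF3 had differences of −0.76 (SE 0.16), −0.64 (SE 0.16), 0.64 (SE 0.14) and −1.10 (SE 0.23) that did not pass.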

How the data were processed

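cDNA of 22 IMR90 libraries was made with the SMART-Seq v4 reagents and tagmented with Nextera XT. Per the submitters' processing notes and the methods, bcl2fastq 2.20.0.422, STAR 2.7.9a (genome hg38) and HTSeq 0.13.5 made the reads, the alignments and the counts. HTSeq's strand setting and annotation release are not given in the sources used here. The authors deposited raw gene counts as whole numbers. Lines that name no gene, with 18.3 to 22.4% of the reads, were left out. The study used an exact test between 2 groups, which cannot test a difference of differences.

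Here 6 group means over all 22 libraries were fitted by quasi-likelihood (edgeR 4.0.16, R 4.3.3, TMM). The study's filter, over 10 CPM in 2 or more libraries, left 9770 genes, with P adjusted by Benjamini-Hochberg and a threshold of 0.05. Replicates of a group varied by more than counting error (chi-square divided by its degrees of freedom, 3.93 to 19.8 for 18 pairs). Correlations of same-numbered libraries were over 0.1 in all 4 pairs of PBS-NTC and PBS-siMSK2 and in 3 of the other 15, and a block was an alternative. Alternatives were other scalings, filters, libraries in the fit and thresholds, DESeq2 1.42.0, limma-voom (limma 3.58.1), a block and each library left out.

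Named genes were the 10 with the smallest P in each direction, RPS6KA4, 4 genes of the study's text, the 4 members of each of 17 lists with the smallest P, and the 5 lowest and 5 highest of the study's 59. Members and lists were chosen with earlier results of these data known.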

Additional observations from a re-analysis of the deposited data

Results flagged for a closer look

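In groups of 4 libraries, 17 of 164 gene and group sets had 1 library whose gap to its nearest neighbour was above Dixon's 95% critical value as a share of the range, where chance flags about 1 in 20. Groups of 3 were not tested. The values of 16 of the 17 are given here. In PBS-NTC, replicate 4 was the highest library for NFIL3 (87.4 CPM, next 64.5), FERMT2 (126 CPM, next 111), FDPS (94.8 CPM, next 69.0), MX1 (45.7 CPM, next 7.74), IFIT3 (72.7 CPM, next 26.2), IFI6 (44.6 CPM, next 18.0), IFIT1 (119.85 CPM, next 33.4) and POSTN (1509 CPM, next 1183). The same library was the lowest for SESN2 (75.4 CPM, next 119.5). Also in PBS-NTC, CEP112 was high in replicate 2 (13.4 CPM, next 11.5) and PLGRKT was low in replicate 3 (12.8 CPM, next 17.8). In PBS-siMSK2, replicate 2 was low for SLC43A3 (9.58 CPM, next 13.6) and high for NR4A2 (27.9 CPM, next 25.7), and replicate 3 was low for FOS (6.88 CPM, next 10.9). In that group, replicate 1 was high for SOCS3 (34.6 CPM, next 27.5) and LSS (233.9 CPM, next 194). PBS-NTC replicate 4 also had the lowest depth of the 14 libraries, and its part in these values was not tested.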

How the results depend on the processing

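The count of 0 genes in the 60 min interaction moved under several settings. Genes called lower numbered 3 with DESeq2, 2 with limma-voom, 2 with the replicate block, 2 at an adjusted P under 0.1, 1 with replicates 1 to 3 only, and 3 with no filter on low counts, which also called 1 higher (MX1). Leaving out 1 library gave 0 to 1 lower (ITPRIP without PBS-NTC replicate 1, DUSP1 without PBS-NTC replicate 4) and 0 higher. The 2 of the replicate block were DUSP1 and ITPRIP. The labels do not say what a replicate number shares. Same-numbered libraries correlated at 0.143 to 0.4998 between PBS-NTC and PBS-siMSK2 and at −0.309 to 0.398 between the other pairs of groups. Of those 15 other pairs 3 were over 0.1. Replicate 1 of EGF60-NTC was in 2 of them, with replicate 1 of PBS-NTC (0.398) and of PBS-siMSK2 (0.375). Correlations of differently numbered libraries are not given, so what the numbers pair is not settled. Genes lower and higher after PBS numbered 1326 and 1310 with the replicate block, 1419 and 1354 with the block and 930 and 879 with no block in a fit of the 8 PBS libraries, and 1274 and 1200 without PBS-NTC replicate 4 (settings added after the data had been seen). The cause of these changes was not tested. The interaction at 30 min gave 49 genes with no filter and 0 to 18 without 1 library (18 without PBS-NTC replicate 4). The change from 30 to 60 min gave 169 genes with no filter, 12 with DESeq2, 4 with only the EGF libraries in the fit, and 0 to 1 without 1 library, and DUSP1 ranged from −0.83 to −0.71. The median of the interferon-stimulated genes was 0.0719 without PBS-NTC replicate 4 and 0.111 with replicates 1 to 3. The interaction of IFIT1 turned to −0.037 with replicates 1 to 3 and ranged from −0.019 (without PBS-NTC replicate 4) to 1.028 with 1 library left out. For 63 single genes, 754 values under the alternatives were counted. Of the fits with 1 library left out, only the lowest and the highest log2 value of each gene were among them. Of the 754 values, 738 kept their direction and side of the threshold. A further 14 (DUSP1, ITPRIP, ZNRF3, MX1 and MT-CO1) came to pass it, and the 2 of IFIT1 reversed. The number of genes that responded to EGF stayed within 1.5 times its value. The median interaction of those that rose moved by less than the median standard error of a single gene's interaction. That limit is wide beside the median of −0.025, and a change of sign could have stayed within it. The median interaction of all genes was −0.0042 with TMM, −0.0092 with DESeq2 size factors and 0.0030 with library sizes only. Genes below 0 numbered 5018, 5153 and 4764 in that order, so the side of 0 depended on the scaling. Low counts limit ZNRF3, DUSP2, CD274 and RPS6KA4. The median 95% interval half-width of 0.34 is unadjusted, so differences well above it could miss the adjusted threshold, as ZNRF3 (−1.10) did. MX1 (2.09, SE 0.98) also missed it, but its value was 0.65 without PBS-NTC replicate 4.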
